A study of Mus musculus with 15 samples.

Results

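Between embryonic days E12.5 and E14.5 the RNA profile of the mouse liver was called changed in a minority of the features that could be measured. More of them fell than rose, but not when E12.5 replicate 1 was left out (1409 up and 1194 down). The step was measured on 6 of the 15 arrays of a study of liver development in C57BL/6 mice, an inbred laboratory strain: 3 arrays of E12.5 fetal liver and 3 arrays of E14.5 fetal liver. Both groups were untreated whole liver of the same strain, with no transgene or added agent named, and the labels do not say whether an array stands for 1 liver, 1 litter or a pool. A feature was taken as a member of the comparison where the scanner software marked it as well above background on each of the 3 E12.5 arrays or each of the 3 E14.5 arrays; such a feature is called bright at that stage. Members numbered 32444 of the 37357 features bright at 1 stage or more of the study, which also holds E17.5, neonatal and adult (8 weeks) liver. Of these members 27331 were bright at both stages, 4386 at E14.5 alone, and 727 at E12.5 alone.

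In this period the liver bud grows rapidly and becomes the main site at which blood cells form. Hepatoblasts, the common precursors of hepatocytes and bile duct cells, expand beside a large population of maturing red cells, and the adult metabolic program is still weak. Long intergenic noncoding RNAs (lincRNAs) are transcripts without a protein product that lie between coding genes; many are made in only a few tissues and stages. Transcribed ultraconserved elements are RNAs made from stretches of DNA that mouse and human share letter for letter.

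Each level below is the log2 of the scanner's processed intensity minus the 75th percentile of its own array, called the scaled log2 signal, so a value of 0 is the level of that percentile and a difference of 1 is a factor of 2. Levels of different probes cannot be set against each other. Changes are E14.5 minus E12.5 from limma, given with their standard error and the p-value adjusted by the Benjamini-Hochberg method over all 37357 features. A feature was called changed at an adjusted p below 0.05, and "rose" and "fell" are used of called features alone. Whole liver was measured, so a fall can be fewer cells of a type or less RNA per cell, which cannot be told apart. The number of arrays, 3 a stage, limits the precision.

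The labelled tissue could not be checked by its defining markers. None of 25 liver genes, 21 genes of blood progenitors and leukocytes or 20 endothelial and mesenchymal genes has a probe that the files name, and of 26 red-cell genes only Tfrc has one. Both stages lay on 1 slide, with E17.5 replicates 1 and 2. E17.5 replicate 1 was unusual: 55.8% of its negative control spots were well above background, against 4.0% to 9.6% on the other arrays of the study. It enters the spread of the main fit, and its values are among the E17.5 levels given below. With that array left out of the fit 2017 features were called. The E12.5 arrays were less alike than the E14.5 arrays: the correlation across the tested features was 0.936, 0.952 and 0.968 between pairs of E12.5 arrays and 0.984 to 0.985 between pairs of E14.5 arrays, while arrays of different stages correlated at 0.941 to 0.967. E12.5 replicate 1 was the dimmest, with a 75th percentile of 159.5 against 265.5 to 309.4 on the other 5 arrays and 50.9% of noncontrol spots well above background against 55.6% to 59.6%. The median SD of a feature over 3 arrays was 0.378 at E12.5 and 0.151 at E14.5, over the 27331 features bright on all 6 arrays.

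At the level of all features, 1754 of the 32444 members were called, 642 up and 1112 down; 4.93% of all tested features were called, 1.82% up and 3.11% down. Of the 27331 members bright at both stages, 479 rose and 907 fell, which is 1.75% and 3.32% of them. Among these 1386 called members 1269 changed at least 2-fold, beside 4.6% of all tested features called at that size. At least 4-fold changes were made by 75 that rose and 245 that fell, where the shares of all tested features were 0.493% and 1.09%, and at least 8-fold changes by 17 and 51. The changes ran from −6.88 to 5.38 on the log2 scale. All 479 that rose and 905 of the 907 that fell had no overlap between the 3 values of each stage; groups that do not overlap were also found in 11.2% of all tested features upward and 16.5% downward, so this is a common state here. The median change of all tested features was −0.01.

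**Figure D1:**
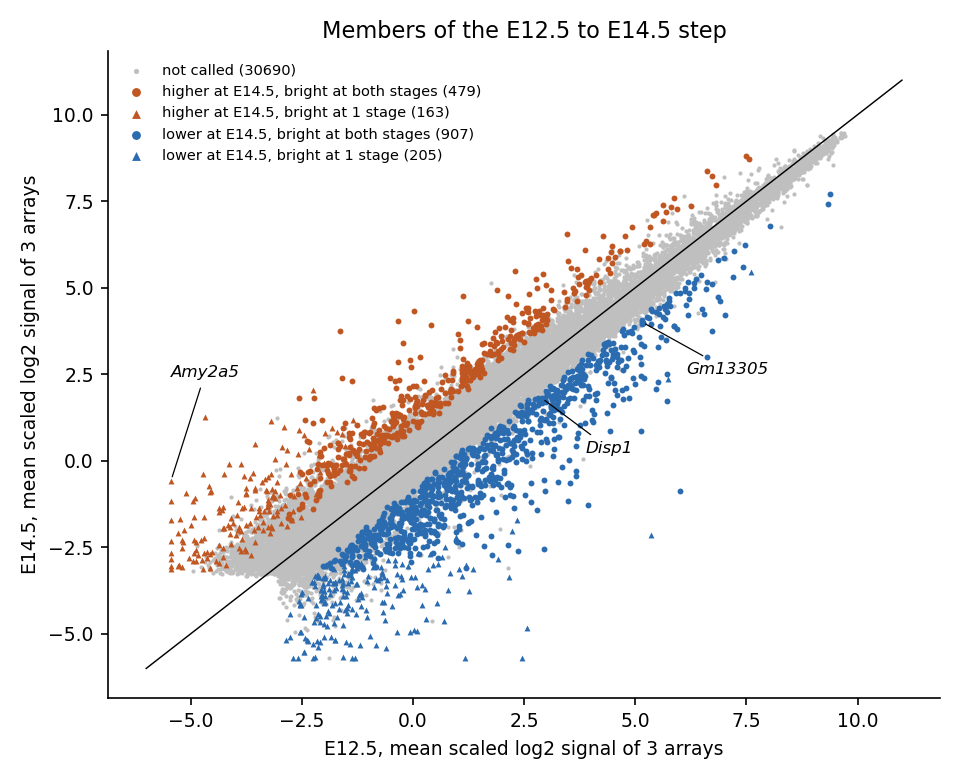
Mean scaled log2 signal of each member at E12.5 (x axis) and E14.5 (y axis), with the line of equal levels; orange marks the 642 that rose, blue the 1112 that fell, grey those not called, circles are features well above background on all 6 arrays and triangles those bright on all 3 arrays of 1 stage alone. The 907 blue circles lie below the line in greater number than the 479 orange circles above it.

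The count of calls rested on the arrays used. Without E12.5 replicate 1 the members bright at both stages that rose numbered 1057 and those that fell 892. Without E12.5 replicate 3 the numbers were 237 and 482, without E14.5 replicate 1 they were 164 and 316, and without E14.5 replicate 3 they were 197 and 388. Leaving out E12.5 replicate 2 or E14.5 replicate 2 gave 298 or 293 that rose. So the excess of falls held in 5 of these 6 fits and not without E12.5 replicate 1. For 58.0% of the 479 that rose, that array was the E12.5 array nearest to the E14.5 mean, and for 52.1% of the 907 that fell it was the farthest. The part of its low brightness in these counts was not tested.

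**Figure D2:**
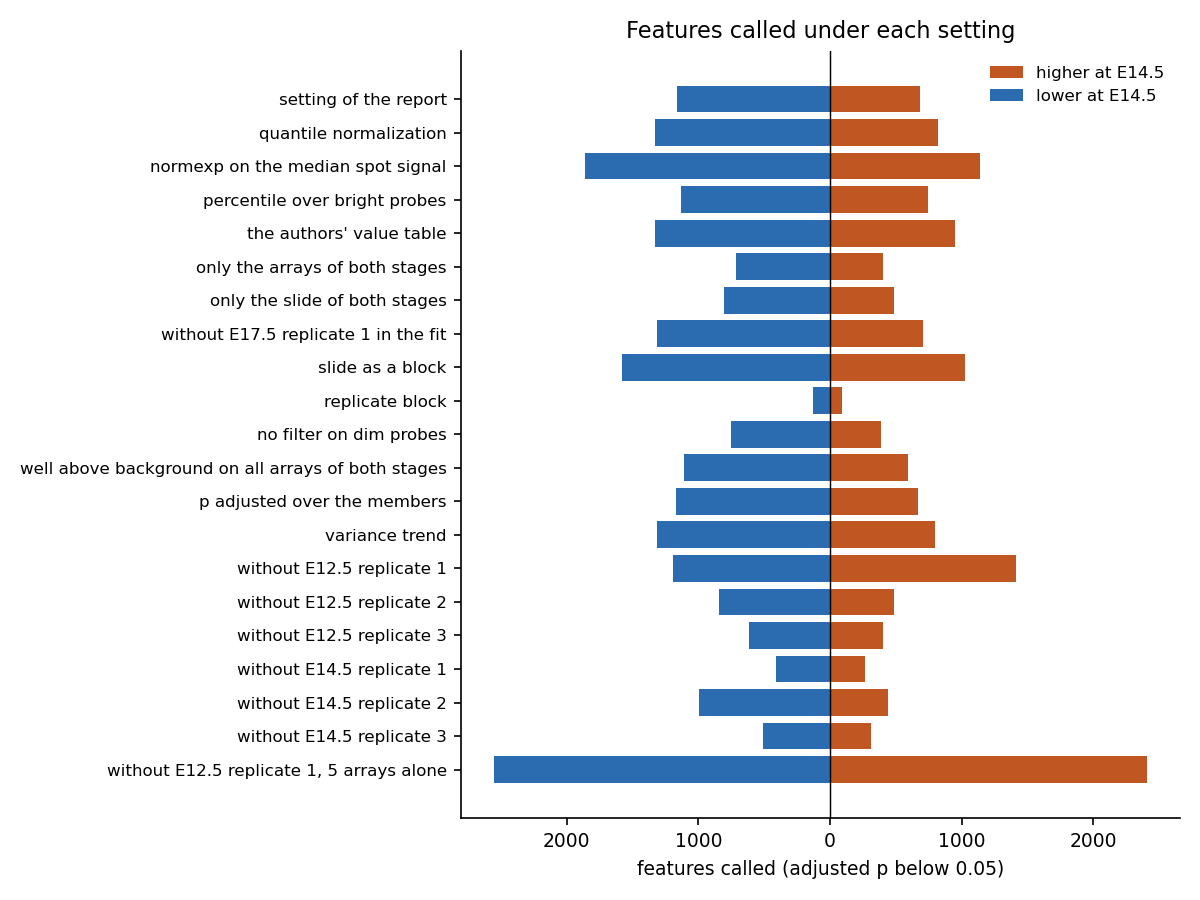
Number of features called under each setting (x axis, to the right those higher and to the left those lower at E14.5), with the setting of the report at the top and arrays left out in turn near the bottom. Falls outnumber rises in every bar pair except that without E12.5 replicate 1 (1409 up and 1194 down).

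The later stages place these features in the longer course; the features were chosen on their E12.5 and E14.5 values, so those levels are a description. The 479 that rose had array medians of 0.44 to 0.70 at E12.5 and 1.97 to 2.17 at E14.5, and their medians were 2.66 to 2.96 at E17.5, 2.83 to 3.02 in neonatal and 2.41 to 2.62 in adult liver. The 907 that fell had medians of 1.41 to 1.54 at E12.5 and −0.60 to 0.06 at E14.5, then −0.31 to 0.17 at E17.5, 0.12 to 0.68 in neonatal and −0.05 to 0.29 in adult liver. As a set the features that rose thus stayed above their E12.5 level on every later array, and those that fell stayed below theirs. E17.5 replicate 3 and all neonatal and adult arrays lay on the other slide. All of these but adult replicate 2 had a multiplicative detrending that no array of the first slide had. For these arrays, here and below, stage cannot be told apart from slide and processing. E17.5 replicates 1 and 2, on the slide of E12.5, had medians of 2.66 and 2.74 for the rises and −0.31 and −0.07 for the falls.

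Among the 69 members with a gene symbol, 1 rose, 3 fell and 65 were not called, and 45 of these 65 had a change within 0.5 on the log2 scale. At an unadjusted p below 0.05 there were 14, 3 up and 11 down, beside 17.3% of all tested features at that limit.

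The gene that rose was Amy2a5, which encodes a pancreatic alpha-amylase, the enzyme that cuts starch. Its scaled log2 signal was −4.96, −5.47 and −5.89 on the E12.5 arrays and −0.55, −0.37 and −0.81 on the E14.5 arrays. The E12.5 values are the lowest value of each array, which many dim features share (12853 to 15983 an array), so they are no measured level of the gene, and no E12.5 array had the probe well above background while all 3 at E14.5 did. On this background setting the rise was therefore at least 5.82-fold. That bound sets the E14.5 mean against the lowest signal well above background on each E12.5 array. The fitted difference was 4.87 ± 0.30 (limma, adjusted p = 2.02e-06). It sets the shared lowest values of the E12.5 arrays against signal, in a member that passed through E14.5 alone. Neither this difference nor its p-value therefore measures the size of the rise. With normexp background correction the fitted difference was 1.72, smaller than the bound, and the gene was still called. Its level was higher at every later stage, at 5.41, 5.87 and 5.42 at E17.5, a mean of 6.03 in neonatal liver and 2.54, 1.97 and 2.28 in the adult. Amy2a5 was the only one of 21 genes of the exocrine pancreas and salivary gland with a named probe, so other genes of those cells were not measured here.

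Amylase genes lie in a cluster that holds near-identical Amy2a copies, and the files give no probe sequence, so the signal may be that of several copies. The promoter windows of RefSeq (build GRCm38.p6, 250 bases before to 50 after the annotated start) show how close the copies are, and are printed for that reason, with Amy2a5 at chr3:113258650-113258949 and Amy2b at chr3:113156678-113156977, both on the minus strand; the capitals mark TATAAA and, in Amy2b, CACCTG.
Amy2a5: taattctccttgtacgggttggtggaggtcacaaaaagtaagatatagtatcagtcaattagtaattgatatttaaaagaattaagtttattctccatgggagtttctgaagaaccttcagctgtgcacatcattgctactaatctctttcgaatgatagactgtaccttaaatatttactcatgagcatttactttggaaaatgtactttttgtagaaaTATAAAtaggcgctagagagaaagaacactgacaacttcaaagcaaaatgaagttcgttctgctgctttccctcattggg
Amy2b: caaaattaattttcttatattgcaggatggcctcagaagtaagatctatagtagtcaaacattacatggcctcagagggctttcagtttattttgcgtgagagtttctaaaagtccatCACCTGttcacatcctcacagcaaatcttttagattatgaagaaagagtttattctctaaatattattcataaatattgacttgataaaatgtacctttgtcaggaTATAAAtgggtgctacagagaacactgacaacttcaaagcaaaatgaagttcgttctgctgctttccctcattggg
The aligned parts of these windows were identical at 225 of 283 bases (79.5%). Against Amy2a2, whose annotated start lies elsewhere, the overlap of 162 bases was identical throughout, and the windows of Amy2a2, Amy2a3 and Amy2a4 were the same over all 300 bases. The windows of Amy1 were less alike, identical to Amy2a5 at 85 of 126 (67.5%) and 102 of 137 (74.5%) aligned bases. How alike the probed parts of the transcripts are is not shown by these windows. TATAAA, searched on both strands, stood 30 bases before the start of Amy2a5 and 26 before that of Amy2b; 13.6% of 32807 promoter windows hold it. CACCTG was in the Amy2b window and 20.2% of all windows, and GATAAG, the core recognised by GATA factors, was in neither of them and in 7.4% of all.

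The 3 genes that fell were Ppp2r3d, Disp1 and Gm13305, each by about 1 on the log2 scale. Disp1 encodes Dispatched, a membrane protein that releases lipid-bound hedgehog ligands from the cells that make them. Its values were 3.14, 2.60 and 2.94 at E12.5 and 1.63, 2.11 and 1.72 at E14.5. All E12.5 arrays were above all E14.5 arrays, and the gene fell by 1.08 ± 0.28 (limma, adjusted p = 0.0457). All its values at later stages were below those of E12.5, with stage means of 2.08 at E17.5, 1.49 in neonatal and 1.59 in adult liver. The call of Disp1 did not hold without any single one of the 6 arrays, with adjusted p from 0.0534 to 0.203 in those fits.

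Ppp2r3d encodes a regulatory subunit of protein phosphatase 2A, an abundant serine and threonine phosphatase, and is annotated here by a noncoding accession. It read −0.89, −1.26 and −0.98 at E12.5 and −2.12, −1.89 and −2.37 at E14.5, with no overlap. It fell by 1.09 ± 0.28 (limma, adjusted p = 0.0376), and this call too was lost when any 1 of the 6 arrays was left out (adjusted p for Ppp2r3d from 0.0542 to 0.180). Its later levels were −1.60 to −0.69 at E17.5, −1.23 to −0.72 in neonatal and −2.48 to −2.10 in adult liver, so it was low at E14.5 and in the adult.

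Gm13305 belongs to a group of copies of Il11ra2, itself a copy of the gene for the interleukin-11 receptor alpha chain. Its values were 5.33, 4.91 and 5.22 at E12.5 and 3.77, 4.28 and 3.98 at E14.5, again without overlap, and it fell by 1.14 ± 0.31 (limma, adjusted p = 0.0492). The call was lost without any single array of the 6 (adjusted p for Gm13305 from 0.0689 to 0.220). Gm13304, another copy with its own probe, read 1.81, 0.98 and 0.99 at E12.5 and 0.98, 1.97 and 1.52 at E14.5, and its stages overlapped. The difference between the copies was not tested. Ccl21b, a chemokine gene that lies close to Gm13305 in the RefSeq order of chromosome 4, had a change of 0.49. The windows around their starts show how close such copies can be, though not how alike the probed parts are. Gm13305 (chr4:42168554-42168853) and Il11ra2 (chr4:42665714-42666013), both on the minus strand of GRCm38.p6, shared 299 of 299 aligned bases, shifted by 1 base. None of the 3 motifs was in either window, so no letter is in capitals.
Gm13305: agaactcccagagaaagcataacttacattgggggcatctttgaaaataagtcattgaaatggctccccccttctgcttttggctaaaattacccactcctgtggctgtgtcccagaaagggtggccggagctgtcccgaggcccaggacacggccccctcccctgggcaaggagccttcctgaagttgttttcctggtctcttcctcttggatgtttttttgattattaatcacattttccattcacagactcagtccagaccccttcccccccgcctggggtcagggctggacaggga
Il11ra2: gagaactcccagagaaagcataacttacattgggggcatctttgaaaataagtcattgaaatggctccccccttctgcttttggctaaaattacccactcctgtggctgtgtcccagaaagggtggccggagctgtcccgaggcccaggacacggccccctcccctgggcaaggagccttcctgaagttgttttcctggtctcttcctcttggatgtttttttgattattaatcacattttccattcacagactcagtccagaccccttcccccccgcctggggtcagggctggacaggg

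**Figure D3:**
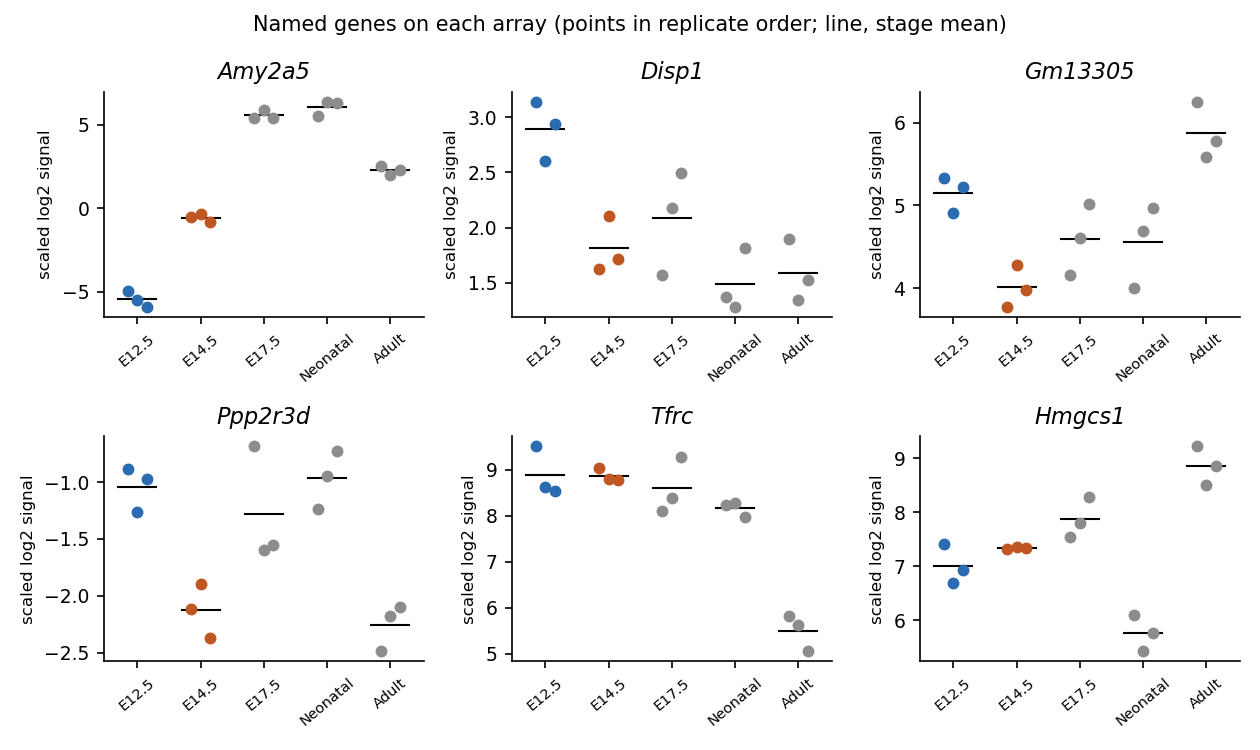
Scaled log2 signal (y axis, its own range in each panel) of 6 named genes on all 15 arrays, by stage, with points in replicate order and a line at each stage mean; blue is E12.5, orange E14.5 and grey the other stages. Disp1, Gm13305 and Ppp2r3d have all 3 orange points below all 3 blue points, Amy2a5 has them above, and Tfrc has them within the blue range.

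Disp1 has measured neighbours on chromosome 1. In the RefSeq gene order of GRCm38.p6, Brox, Aida, Mia3, Taf1a and Hhipl2 follow it with a few other genes between. Taf1a, a subunit of the factor that brings RNA polymerase I to ribosomal RNA genes, had a change of −0.90 ± 0.25 and an adjusted p of 0.0561 in limma. Its values were 3.21, 2.76 and 2.81 at E12.5 and 1.92, 2.32 and 1.83 at E14.5, without overlap. Brox (−0.25), Aida (−0.06) and Mia3 (0.30), the last of which helps export collagen from the endoplasmic reticulum, were not called. Hhipl2 is called lower (adjusted p = 0.033 in limma) but only 2 of its E12.5 arrays and none of its E14.5 arrays passed the brightness mark, so it is no member. Outside this stretch Jrkl, a jerky-like nuclear protein, came nearest to a call, with a change of −0.81 ± 0.25 (limma, adjusted p = 0.0838).

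Genes of blood-cell iron uptake, metabolism and chromatin with a named probe were not called. Tfrc, the transferrin receptor by which maturing red cells take up iron, read 9.50, 8.62 and 8.54 at E12.5 and 9.04, 8.79 and 8.76 at E14.5. Its stages overlapped and its change was −0.02 ± 0.34. Hmgcs1, an early enzyme of cholesterol synthesis, read 7.41, 6.70 and 6.93 and then 7.32, 7.36 and 7.34, a change of 0.33 ± 0.28. The 3 measured genes of glycerol, fat and carnitine metabolism had changes of 0.35 for Gk (glycerol kinase), −0.06 for Tmlhe (the first enzyme of carnitine synthesis) and 1.29 for Ldhal6b, a lactate dehydrogenase-like gene.

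Ldhal6b had the largest of these differences, with values of −1.57, −2.31 and −2.12 at E12.5 and −0.52, −0.76 and −0.85 at E14.5. The groups did not overlap, yet with an SE of 0.54 the adjusted p was 0.221 (limma). Ldhal6b passed the threshold in 3 of 19 alternatives: with the slide as a block (0.00999), with only the slide of both stages (0.0427) and with 5 arrays, without E12.5 replicate 1 (0.0195). Gk, whose product readies glycerol for use, also had no overlap, at −1.48, −1.21 and −1.30 against −0.99, −0.89 and −1.05 (adjusted p = 0.62 in limma).

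Of 4 histone H2A genes none was called. H2ac18 had a change of 0.64 ± 0.24, with values of 3.23, 2.45 and 2.46 and then 3.48, 3.38 and 3.17 (limma, adjusted p = 0.17). H2ac18 passed the threshold in 4 of 20 alternatives, among them the fits without E12.5 replicate 1 (adjusted p = 0.0236), with normexp correction (0.0232) and of the authors' deposited table (0.0458). H2ac19 (−0.25), H2ac23 (0.23) and H2al2b (0.58) were not called. Some histone H2A genes are near-identical copies that a probe may not separate. The lymphoid chemokine copies Ccl21b (0.49 ± 0.38) and Ccl21c (0.57 ± 0.34) and the vomeronasal receptor genes Vmn1r187 (0.94 ± 0.55) and Vmn1r257 (−0.06 ± 0.35) were not called either. H2al2b, Ccl21b, Ccl21c and Vmn1r187 each passed the threshold in 1 of 20 alternatives.

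The 11 genes in common use as references, among them Actb, Gapdh, Hprt, Ppia and Tbp, had changes of −0.30 to 0.30 with a median of −0.20, beside −0.01 for all tested features. None was called, though B2m and Hsp90ab1 each passed the threshold in 1 of 19 alternatives. The median level of the 11 genes was 6.83, 7.07 and 7.10 on the E12.5 arrays and 7.01, 6.89 and 7.06 on the E14.5 arrays. Single genes set E12.5 replicate 1 apart in both directions: Gapdh read 9.80 there against 9.17 and 9.20 on the other E12.5 arrays, and Hsp90ab1 read 5.88 against 7.06 and 7.10. B2m, the light chain of MHC class I, lay at the upper end, with values of 8.12, 7.07 and 6.93 at E12.5 and 7.75, 7.73 and 7.55 at E14.5. Its E12.5 replicate 1 was above every E14.5 array and the other 2 below.

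Falls outnumbered rises among noncoding features too. The 1690 noncoding members bright at both stages, which are those with lincRNA names or a noncoding accession, held 15 that rose and 50 that fell, or 3.85%, beside 5.07% of all 27331. Probes named for lincRNA exons made up most of them: 11 of 1293 rose and 49 fell (4.64%). Of 146 probes named for mouse lincRNAs 3 rose and none fell, at a median change of 0.15; of 248 named for human lincRNAs 1 rose and none fell, at a median of 0.18. Of 231 for ultraconserved elements 4 fell and none rose. In features with a public accession of another kind 6 of 520 rose and 14 fell, and in those with the maker's ID alone 458 of 24823 rose and 837 fell (5.22%). Every share lies at or below the background of 5.07%, apart from the last and from the small set of 3 noncoding accessions, where Ppp2r3d was the 1 called.

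These family counts moved with single arrays as the total did. Without E12.5 replicate 1, 57 lincRNA exon probes bright at both stages rose and 43 fell, and 7 mouse and 7 human lincRNA probes rose. Without E14.5 replicate 1 the lincRNA exon probes numbered 2 up and 17 down, and no mouse or human lincRNA probe bright at both stages was called. Leaving out E12.5 replicate 3 or E14.5 replicate 3 gave 31 or 21 lincRNA exon probes that fell and 2 or 3 that rose. Without the second array of E12.5 or E14.5, 5 rose, and 36 or 41 fell.

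Of the lincRNA exon probes that rose, MM9LINCRNAEXON11530-_P1 had the largest change among those bright on all 6 arrays. It read 3.03, 2.18 and 2.39 at E12.5 and 4.64, 4.30 and 4.30 at E14.5. The gap between the stages was wider than the spread of either, and the rise was 1.88 ± 0.27 (limma, adjusted p = 0.00124). It stood at 6.13 to 6.66 at E17.5, 5.89 to 6.53 in neonatal and 7.20 to 7.56 in adult liver. MM9LINCRNAEXON11939-_P1 followed, with 2.77, 1.99 and 1.80 and then 3.63, 3.62 and 3.55, a rise of 1.41 ± 0.31. It too was higher later, at 3.85 to 5.09 from E17.5 on. The call of MM9LINCRNAEXON11530-_P1 held without any 1 of the 6 arrays, while that of MM9LINCRNAEXON11939-_P1 was lost in 5 of these 6 fits, up to an adjusted p of 0.0802.

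The other 3 named rises had a different later course. MM9LINCRNAEXON10016+_P1 rose by 1.34 ± 0.34, MM9LINCRNAEXON10833-_P1 by 1.27 ± 0.26 and MM9LINCRNAEXON10256-_P1 by 1.23 ± 0.29. The last of them read 3.44, 3.16 and 2.44 at E12.5 before 4.55, 3.94 and 4.22 at E14.5. By E17.5 it was at 3.38 to 3.76. In neonatal and adult liver it read 0.27 to 1.39, below each E12.5 array. MM9LINCRNAEXON10833-_P1 and MM9LINCRNAEXON10016+_P1 were likewise low in the adult, at 0.10 to 0.34 and 0.10 to 0.89. Without E14.5 replicate 1 all 3 calls were lost. Over the 6 fits that left out 1 array, MM9LINCRNAEXON10016+_P1 lost its call in 5, MM9LINCRNAEXON10256-_P1 in 3 and MM9LINCRNAEXON10833-_P1 in 2, with adjusted p of at most 0.181.

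Larger changes were seen among the lincRNA exon probes that fell. MM9LINCRNAEXON10219-_P1 read 3.01, 2.68 and 3.15 at E12.5 and −2.08, 0.79 and −0.37 at E14.5. The E14.5 arrays spread widely but all lay below E12.5, and the probe fell by 3.50 ± 0.81 (limma, adjusted p = 0.0241). Its call was lost without 4 of the 6 arrays taken in turn, up to an adjusted p of 0.136. MM9LINCRNAEXON11765+_P1 fell by 3.49 ± 0.40, from 3.01, 3.37 and 4.15 to −0.76, 0.86 and −0.03. MM9LINCRNAEXON10137-_P1 fell by 3.11 ± 0.32, from 0.52, 0.31 and 0.50 to −3.21, −1.89 and −2.91. These 3 probes stayed below their E12.5 values at all later stages, with adult levels of −3.56 to −2.13, −2.32 to −1.86 and −3.83 to −3.07 in the order named. MM9LINCRNAEXON10982-_P1 fell by 2.35 ± 0.44 from 2.87, 2.84 and 2.96 at E12.5 to −0.30, 1.44 and 0.47, and was back at 2.85 on neonatal replicate 3.

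E14.5 replicate 1 was the lowest and replicate 2 the highest of the E14.5 arrays for each of these 4 probes, and at the level of all 907 members that fell the medians had the same order, −0.60, 0.06 and −0.39 for replicates 1, 2 and 3. How far a property of single arrays sets the size of these falls was not tested.

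One stretch of lincRNA exon numbers held many of the falls, a pattern found after the values were seen. Between numbers 11957 and 11972, 9 of the 11 minus probes tested fell, by 2.05 to 4.87 on the log2 scale (1.28 to 3.12 with normexp correction). Only 2 of these 9, 11957 and 11961, were bright at both stages, with falls of 2.05 and 3.36. The others were members through E12.5 alone, so the filter required them to be high at that stage. Of the 5 plus probes tested in the same stretch, 2 were members, 11964 (0.20) and 11972 (0.54), and neither was called. The other 3 were bright on no array of either stage and could not show a fall. The exceptions among the minus probes were 11958 (−0.43 ± 0.53) and 11960 (0.77 ± 0.49), and the minus probes just outside, 11955 (0.01), 11956 (−0.41) and 11973 (−0.53), were not called. The sign in a probe's name is read here as the strand, and the files do not state whether numbers next to each other are neighbours in the genome or exons of 1 transcript, so these 9 may share a source and are not 9 independent falls.

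The minus probe 11959 read −0.24, −0.28 and 0.31 at E12.5 and −5.83, −3.96 and −5.03 at E14.5. It was well above background on all 3 E12.5 arrays and on no E14.5 array, so its fall is given as at least 9.96-fold. The fitted difference was −4.87 ± 0.43 (limma, adjusted p = 2.94e-05). As the probe is a member through E12.5 alone and dim at E14.5, that difference and p-value do not measure the size of the fall. The bound holds for this background setting: with normexp correction the difference of MM9LINCRNAEXON11959-_P1 was −2.13, smaller than the bound, and still called. The minus probe 11971 read 1.75, 1.96 and 2.07 and then −4.48, −1.57 and −2.44, and the minus probe 11969 read 1.20, 1.52 and 1.36 and then −3.94, −2.13 and −3.30. These E12.5 values lie within a narrow range while those of E14.5 spread by over 1 on the log2 scale. The minus probe 11961 was measured on all 6 arrays and fell by 3.36 ± 0.41, from −0.11, 1.23 and 0.55 to −2.98, −2.62 and −2.81.

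At later stages every value of the 9 probes was below the lowest E12.5 value of the same probe, except 1 of probe 11972. Probe 11961 read −4.22 to −2.73 from E17.5 to the adult. The minus probe 11972, at −1.36, 0.16 and 0.16 at E12.5 and −5.83, −3.27 and −5.78 at E14.5, read 0.39 on adult replicate 2 and −5.24 and −5.36 on the other adult arrays. Its fall is at least 8.21-fold on this background setting. Over the alternatives its difference was as small as −1.96, which is below that bound. All 9 were lower at E14.5 in each of the alternatives that gave a value, and 6 to 9 of them were called in each fit over all 9, with 6 left without E14.5 replicate 1 or replicate 3. Probe 11972 itself was lost in 4 of the 6 fits that left out 1 array (adjusted p up to 0.193).

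**Figure D4:**
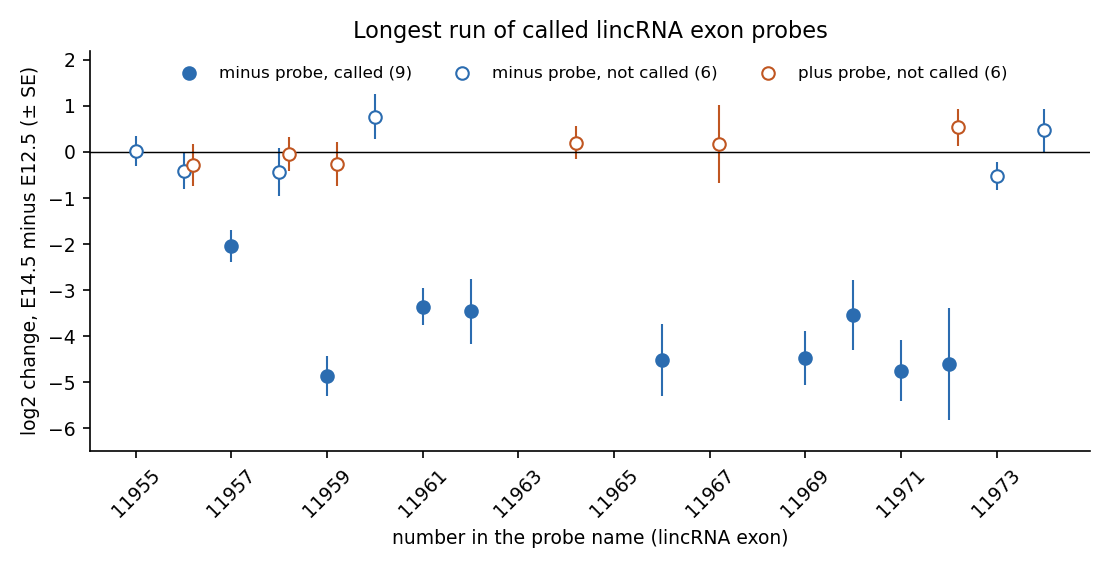
Change from E12.5 to E14.5 on the log2 scale with its SE (y axis) against the number in the name of each tested lincRNA exon probe (x axis), blue for minus and orange for plus probes, filled where called. The 9 filled points lie at −4.87 to −2.05, and the open points, 6 minus and 6 plus, lie between −0.53 and 0.77.

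Shorter runs of 3 called probes were seen at 12033 to 12035 on the minus strand, 11890 to 11893 on the minus strand (−1.48 to −1.12) and 10088 to 10093 on the plus strand (−2.29 to −1.19). In the first of them 12035 fell by 1.99, while 12033 and 12034 were bright on no E14.5 array and have bounds of at least 4.05-fold and 2.37-fold lower. Over the alternatives the differences of 12033 and 12034 were as small as −1.14 and −0.91, which are below those bounds. The other runs did not hold together: in the fits that left out 1 array, MM9LINCRNAEXON11892-_P1 lost its call in 6 of 6 (adjusted p up to 0.177), MM9LINCRNAEXON11893-_P1 in 4, MM9LINCRNAEXON10093+_P1 in 5 and MM9LINCRNAEXON10088+_P1 in 4. Between 10088 and 10093, 1 of 3 tested minus probes fell as well, by 1.07. Over all lincRNA exon members, the changes of probes with next numbers correlated at 0.24 on the minus strand (396 pairs), at 0.08 without the longest run (387 pairs) and at 0.11 on the plus strand (285 pairs). For the features with the maker's ID alone this value was 0.01 (17542 pairs). These are descriptions, since neighbours may share probes' sequence or a transcript.

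Most called lincRNA and ultraconserved probes carried the minus sign: 80 of 102 called members, while the members of these families hold 1264 minus and 1112 plus probes. Over all tested features 4.93% were called. Of the 102, 60 lincRNA exon, 3 mouse lincRNA, 1 human lincRNA and 4 ultraconserved probes were bright at both stages. The rest were members through 1 stage alone. The 80 also include the runs of minus probes above, which may share a source. All 102 have a probe for the other sign on the array, which was itself a member for 34 of them and called for 7. Where both signs were members, their changes correlated at 0.10 over 494 pairs. MM9LINCRNAEXON10122+_P1 rose while MM9LINCRNAEXON10122-_P1 fell by 1.47, and both probes of MM9LINCRNAEXON10089 fell. The call of MM9LINCRNAEXON10122+_P1, bright on no E12.5 array, was lost with normexp correction (adjusted p = 0.648) and in 4 of the 6 fits without 1 array.

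Of the 3 mouse lincRNA probes that rose with signal on all 6 arrays, mouselincRNA1103-_P1 read 2.57, 2.05 and 2.31 at E12.5 and 3.82, 3.39 and 3.59 at E14.5, a rise of 1.29 ± 0.24 (limma, adjusted p = 0.00625). Its adult level was −0.82 to −0.30, below both stages. A similar shape was seen for mouselincRNA0052-_P1, with 4.26, 4.02 and 3.45, then 4.83 to 5.45, and 1.66 to 1.95 in the adult, a rise of 1.24 ± 0.27. The third, mouselincRNA0453+_P1, rose by 1.21 ± 0.24 from 0.38, 0.29 and −0.10 to 1.65, 1.28 and 1.28 and stood at 4.47 to 5.63 from E17.5 on. All 3 calls were lost without E14.5 replicate 1, and the last 2 without E12.5 replicate 3 as well; without E14.5 replicate 1 the fits gave adjusted p of 0.0504 for mouselincRNA1103-_P1, 0.111 for mouselincRNA0052-_P1 and 0.0744 for mouselincRNA0453+_P1.

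The probe humanlincRNA0459+_P1 rose by 1.17 ± 0.32, from −0.16, −0.31 and −0.87 to 1.09, 0.52 and 0.56 (limma, adjusted p = 0.0484). It was lost in 5 of the 6 fits without 1 array (adjusted p up to 0.238). In the adult it read −0.79, −1.09 and −0.90, as low as at E12.5. For humanlincRNA1166+_P1, bright on no E12.5 array and on all 3 at E14.5, the rise is given as at least 1.44-fold; with normexp correction the call was lost, at a difference of 0.31. What mouse RNA the probes named for human lincRNAs read is not stated in the files.

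Among ultraconserved elements uc.452- had the largest fall. Its values were −0.02, 0.24 and −0.08 at E12.5 and −3.25, −1.59 and −2.69 at E14.5, a fall of 2.56 ± 0.36 (limma, adjusted p = 0.0011). The plus probe of the same element was not called, at 0.36. Falls were also called for uc.408- (1.81 ± 0.31), from 2.82, 4.06 and 3.30 to 1.30, 1.89 and 1.56, and for uc.324- (2.05 ± 0.50), whose E12.5 values of −1.62, 0.84 and 0.06 spread widely and whose call was lost in 5 of the 6 fits without 1 array. For uc.34 both probes fell, the plus probe uc.34+ from 0.47, −0.30 and 0.29 to −1.71, −1.34 and −1.48. The minus probe uc.34-, with a difference of −1.40, was well above background on only 1 E14.5 array. It was a member through E12.5 alone, so the filter required it to be high at that stage. Rises from no bright E12.5 array to 3 bright E14.5 arrays were bounded at 1.36-fold for uc.180-, 1.16-fold for uc.87- and 1.13-fold for uc.158-, and none of these 3 was called with normexp correction.

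**Figure D5:**
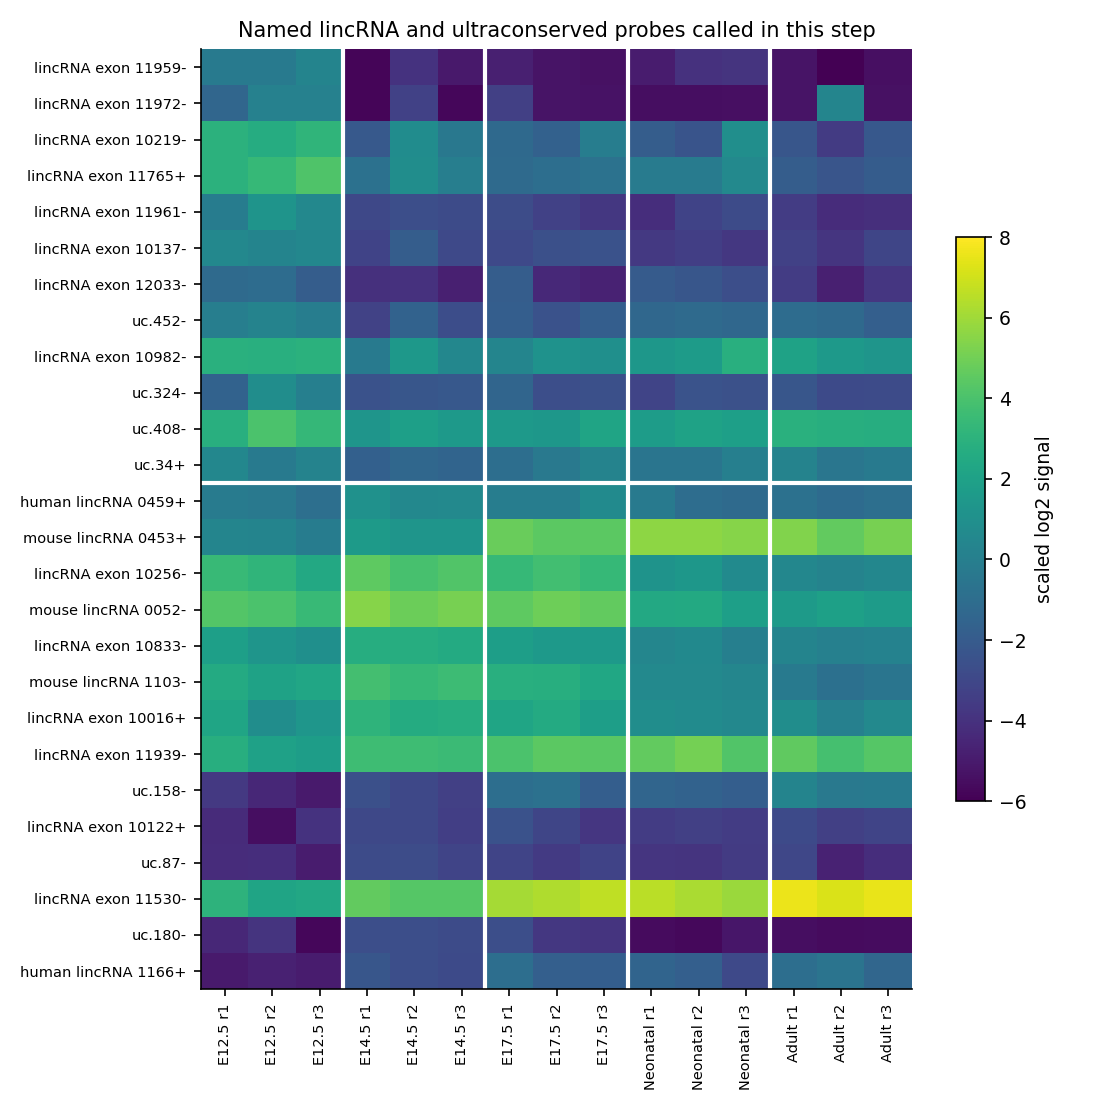
Scaled log2 signal (colour) of the named lincRNA and ultraconserved probes that were called, one probe a row and one array a column, ordered from the largest fall at the top to the largest rise at the bottom, with white lines between stages and between falls and rises; the suffix of the IDs is left out. The probes above the line are brighter on the E12.5 arrays than on the E14.5 arrays, and those below it dimmer.

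Of the features with another public accession, AF416735_P1 had the largest fall among those bright on all 6 arrays, from 3.84, 3.92 and 4.42 to 0.77, 2.13 and 1.17, a fall of 2.70 ± 0.48 (limma, adjusted p = 0.00494). Next came BY765531_P1 (2.07 ± 0.30), BC018397_P1 (2.04 ± 0.51), ENSMUST00000166295 (2.03 ± 0.27) and AK171993 (1.66 ± 0.42). BC018397_P1 and AK171993 each lost their call in 5 of the 6 fits without 1 array, with adjusted p up to 0.149 and 0.203. The files and the reference tables used do not pair these accessions with a gene. ENSMUST00000166295 fell from 0.89, 0.46 and 0.88 to −1.67, −0.91 and −1.28 and was highest of all stages in the adult, at a mean of 1.37.

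On the rising side, AK007918_P1 went from no bright array to 3, at −1.53, −2.09 and −1.44, a rise of at least 2.69-fold. That bound holds for this background setting. Over the alternatives the difference of AK007918_P1 was as low as 0.88, smaller than the bound, and the probe was still called. Among those bright throughout, CJ063159_P1 rose by 2.23 ± 0.54, C89169_P1 by 1.62 ± 0.35, AV571911_P1 by 1.55 ± 0.31, AA560495_P1 by 1.28 ± 0.27 and DV657710_P1 by 1.26 ± 0.31. CJ063159_P1 was uneven at E12.5, with −0.07, −2.78 and −1.48 before 1.08, 0.55 and 0.74. AV571911_P1 read 3.23, 2.42 and 3.65 and then 4.77, 4.52 and 4.65, a tight group above every E12.5 array. ENSMUST00000119623, bright on no E12.5 array, rose by at least 1.78-fold, but with normexp correction its difference was 0.49 and not called (adjusted p = 0.256), and 7 of its 18 alternatives lost the call. Of these 7 rises, AK007918_P1 alone was called in all 6 fits without 1 array; CJ063159_P1 and DV657710_P1 were lost in 5 of them.

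The largest changes of all features bright on the 6 arrays were made by features that carry the maker's ID alone. ASMM9PARTA024920 rose by 5.38 ± 0.32 (limma, adjusted p = 1.66e-06), from −0.86, −2.25 and −1.79 to 3.94, 3.52 and 3.77. ASMM9PARTA026146 rose by 4.38 ± 0.32, from −1.76, −2.83 and −3.13 to 1.95, 1.57 and 1.89. Both were higher again at every later stage, with adult means of 8.67 and 8.92.

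In the other direction ASMM9PARTA031376 read 9.53, 4.29 and 4.20 at E12.5 and −0.11, −0.77 and −1.74 at E14.5. ASMM9PARTA031376 fell by 6.88 ± 1.19, and fell by 5.12 without E12.5 replicate 1, which is the high array. ASMM9PARTA030082 fell by 5.49 ± 0.47, from 1.95, 3.16 and 3.69 to −2.10, −2.19 and −3.38. The files do not say which genes these 4 features read.

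Members bright at 1 stage alone were mostly near the limit of detection. Of the 4386 bright at E14.5 alone, 3399 passed the mark on 2 of the E12.5 arrays, 682 on 1 and 305 on none. Where 1 array was missing it was E12.5 replicate 1, the dimmest, for 2220 features, replicate 2 for 1089 and replicate 3 for 90. Of the 727 bright at E12.5 alone, 405 passed it on 2 E14.5 arrays, 180 on 1 and 142 on none, and the missing array was E14.5 replicate 1, 2 or 3 about equally often (136, 144 and 125). More features were thus bright at E14.5 alone than at E12.5 alone, and among those short of 1 E12.5 array most lacked the dimmest one; its part in the difference was not tested.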

How the data were processed

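RNA of 15 mouse liver samples was hybridised in 1 colour (Cy3) to Agilent arrays, whose grid name in the headers cites the mm9 genome. Per the labels' protocols, ribosomal RNA was removed and random-primed cRNA was labelled. The intensity values deposited by the authors are spot signals on a linear scale, background-subtracted and detrended by Feature Extraction 11.0.1.1, per the file headers; the submitters' processing notes name 10.7.3.1. The authors' deposited table of log2 values, whose normalization is not given in the sources used here, served as an alternative.

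Control and outlier spots were left out, spots of a probe were averaged, and log2 signal minus the array's 75th percentile was tested with limma 3.58.1 (lmFit then eBayes, both directions tested), run under R 4.3.3. The model held the 15 arrays and 5 stage means, which leaves 10 residual degrees of freedom. Nothing in the labels says that the arrays come from separate animals, so the p-values reflect variation among these samples alone, possibly technical. RefSeq accessions of 116 of 123 probes gave 112 symbols. Named features were all called symbols, the members on the gene lists, and, for each family of names, up to 5 features a direction with the largest change on all 6 arrays and up to 3 with the largest bound (2 for the maker's IDs). Members, lists and rules were chosen with earlier results of these data known. The fit was tested on simulated data with 50 features changed at each size. Of changes of 1 on the log2 scale it recovered 14%, and of changes of 2, 3 and 4 it recovered 62%, 88% and 90%, with 8 false calls. A feature that was not called may therefore still have changed. Each of the 6 arrays left out in turn, other scalings, filters, blocks and array sets were the alternatives.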

Additional observations from a re-analysis of the deposited data

How the results depend on the processing

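The counts of features called, up and down, with the noncoding calls, were 1843, 680, 1163 and 98. They were 3004, 1143, 1861 and 167 with normexp correction, which used the median spot signal since the planned mean signal was not run, and was chosen after seeing the data. They were 1116, 399, 717 and 53 with only the arrays of both stages and 1140, 386, 754 and 62 with no filter on dim probes. With the slide as a block 1023 rose and 153 noncoding features were called. Over fits that left out 1 array each, the ranges were 673 to 2603 in all, 265 to 1409 up, 408 to 1194 down and 32 to 164 noncoding. Without E12.5 replicate 1 and with only the other 5 arrays of both stages, also chosen after seeing the data, they were 4960, 2408, 2552 and 293. With the replicate number as a block, in a fit to only the 6 arrays of both stages, they were 220, 92, 128 and 13. The labels do not say that arrays with the same number belong together. Same-numbered arrays deviated together at correlations of 0.212, −0.111 and 0.139, and arrays with different numbers at −0.241 to 0.168. With 3 arrays a stage these values cannot decide whether the arrays are paired. Quantile normalization (2153 calls), the authors' deposited table (2284), another percentile (1878), only the slide of both stages (1295), no E17.5 replicate 1 (2017), a variance trend (2111), p adjusted over the members (1838) and a filter on all 6 arrays (1702) stayed within 1.5 times the main total. Of 46 named called members 8 were called under every alternative that gave them a value and 15 under every one but the replicate block, among them Amy2a5, MM9LINCRNAEXON11530-_P1, uc.452- and AF416735_P1. No named feature that was called changed sign. Among named features not called some did, such as H2ac23 (−0.33 to 0.61) and Tfrc (−0.20 to 0.28). The dim signal of E12.5 replicate 1 and the shared lowest values of each array limit what can be said of features near background.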
